A study of Mus musculus with 7 samples.

Results

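The genes described here encode 9 integrin subunits, Itga2, Itga3, Itga6, Itga8, Itgav, Itgb1, Itgb4, Itgb6 and Itgb8, and the integrin ligand nephronectin (Npnt). The list of names was drawn up with earlier results of these data known, and the rule for their probe sets used no measured value. All 10 were measured, by 28 probe sets that list exactly 1 of these genes, out of 18193 genes and 45101 probe sets on the array. Gene expression was measured with 7 Affymetrix mouse genome arrays. The groups were a freshly isolated subclone of mIMCD-3 (1 array), and ureteric bud tip, ureteric bud stalk and metanephric mesenchyme, each microdissected from E12.5 kidneys (2 arrays each, labelled as biological replicates). The tissue arrays had been published before the mIMCD-3 array was added. mIMCD-3 is an epithelial line derived from mouse collecting duct of the inner medulla. It was grown to confluency in DMEM, and a subclone stands for 1 clone of the line. The labels name no strain, genotype or treatment for any group, and do not say how many embryos went into an array. Whether the replicates came from separate litters is not stated. The p-values set each difference against a spread estimated from these arrays, which may not cover the variation between litters.

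Integrins are cell surface receptors made of 1 alpha and 1 beta subunit that bind the extracellular matrix and connect it to the actin or keratin cytoskeleton. The beta1 subunit pairs with many alpha subunits, among them alpha2, alpha3, alpha6 and alpha8, whereas beta4 pairs with alpha6 alone, and beta6 and beta8 pair with alphav. In the mouse embryonic kidney, nephronectin is deposited in the basement membrane of the ureteric bud and is bound by alpha8beta1 integrin on the facing mesenchyme, and mice that lack either Npnt or Itga8 often fail to form kidneys.

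Values are log2 of the deposited intensities, which robust multichip analysis (RMA) had put on a common scale over all 7 arrays. A level of 1 gene is not comparable with that of another, because probes differ in brightness. For each gene the brightest probe set was used for the test, and the others are given beside it. The groups' labels were first set against marker genes. The summed intensity of 6 markers of bud epithelium, Cdh1 and Epcam among them, was 14816 in mIMCD-3, 17399.5 to 18828 in tip, 11588 to 11639 in stalk and 363 to 418 in mesenchyme. Of 5 markers of the mature collecting duct, Aqp2, Aqp3, Scnn1b, Scnn1g and Avpr2, the sum was 221 in mIMCD-3, against 529 to 539 in tip, 428 to 457 in stalk and 174 to 203 in mesenchyme, so the line did not stand out on these markers. The median intensity was 42.1 in mIMCD-3 and 45.7 to 49.2 in the 6 tissue arrays. Replicate arrays of tip were the farthest apart, with a standard deviation of the difference across probe sets of 0.35, against 0.19 in stalk and 0.26 in mesenchyme.

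**Figure D1:**
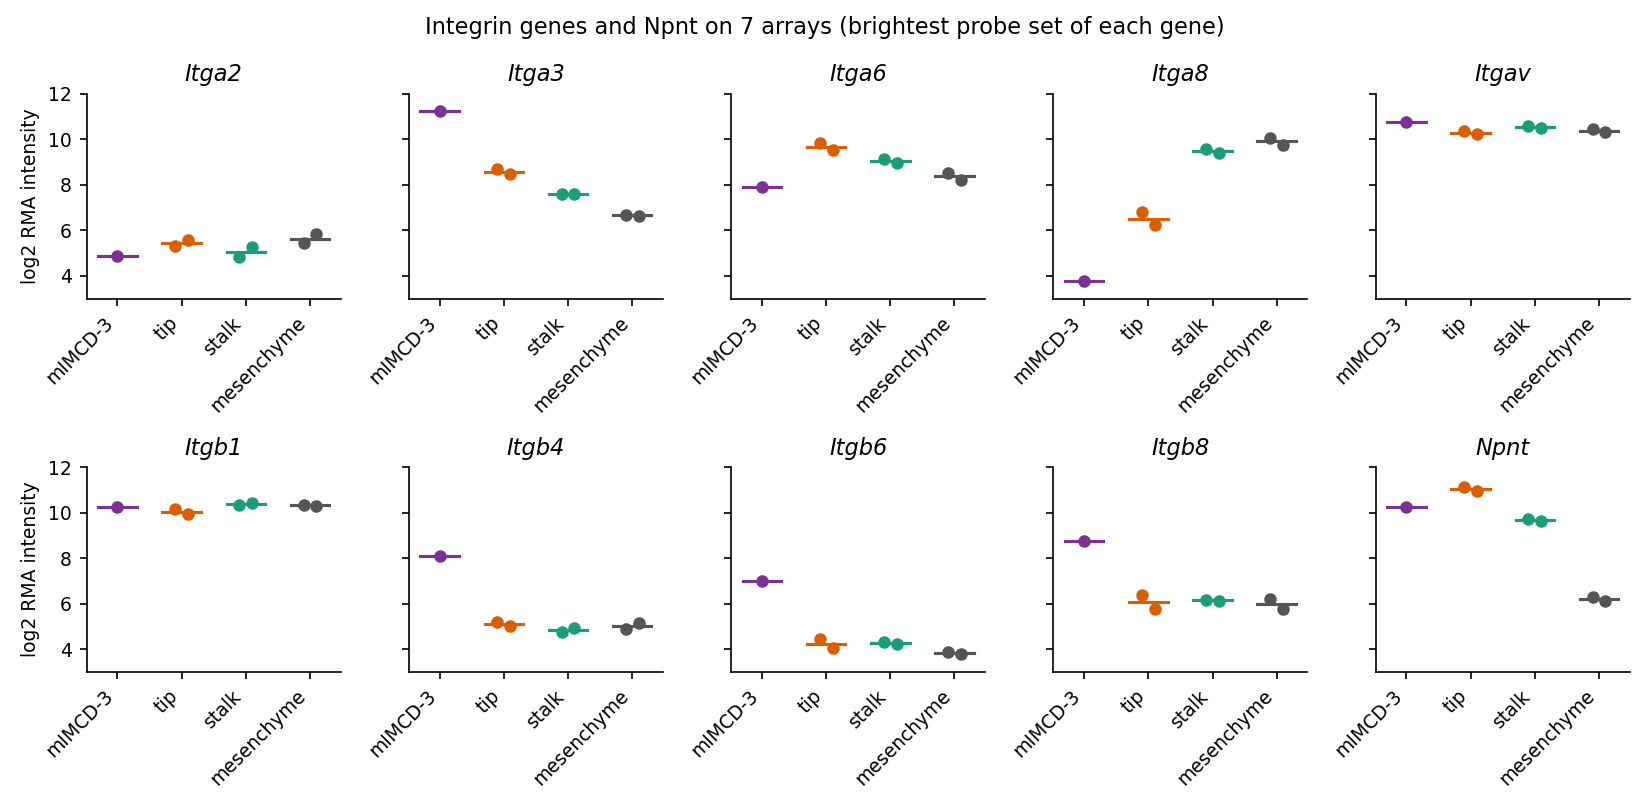
Log2 RMA intensity of the 10 genes on each array, from the brightest probe set of each gene; points are arrays, bars are group means, and mIMCD-3 has 1 array. Npnt was highest in tip and lowest in mesenchyme, Itga8 was lowest in mIMCD-3 and next lowest in tip, and Itgb4, Itgb6 and Itgb8 were high in mIMCD-3 alone.

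The comparison of bud tip and stalk with the mesenchyme asked which of these genes differ between the dissected tissues. The summed intensity of 5 renal stroma markers was 393 to 612 in tip, 6993 to 7552 in stalk and 6817 to 7312 in mesenchyme. The stalk arrays therefore cannot be taken as epithelium alone. The tissue arrays were fitted together with limma, a linear model with moderated variances, and p-values were adjusted by the Benjamini-Hochberg method over every gene, with 0.05 as the threshold. In tip against mesenchyme, 4 of the 10 genes passed, where 15.7% of all genes passed. Npnt, Itga3 and Itga6 were higher, as 7.38% of all genes were, and Itga8 was lower, as 8.37% were. In stalk against mesenchyme, where 5.54% of all genes passed, Npnt and Itga3 were higher (4.3% of all genes) and 0 were lower in limma's test (1.24% of all genes). At an unadjusted p under 0.05, 4 were higher and 1 was lower in stalk. With the replicate number as a block, 4 were higher and 1 was lower in stalk, and without stalk replicate 1 only Npnt passed. In tip against stalk, 3 of the 10 passed, where 9.83% of all genes passed, with Npnt and Itga3 higher (2.86% of all genes) and Itga8 lower (6.97% of all genes). With the block, 4 were higher and 1 was lower in tip than in stalk. The share of all genes was counted only for the fit without a block at the adjusted threshold. Counts at an unadjusted p, with the block or with an array left out, here and for the lists below, therefore have no such share beside them. The median difference over the 10 genes was 0.11, 0.17 and 0.12 in these 3 comparisons, and over all genes it was 0.01, -0.04 and 0.07. Comparisons that use the same arrays are not independent of each other.

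Among the ligand and its receptor, Npnt had the largest difference of the 10 genes in tip against mesenchyme and in stalk against mesenchyme. Its log2 intensity was 11.10 and 10.96 in the tip arrays, 9.72 and 9.61 in the stalk arrays, and 6.30 and 6.12 in the mesenchyme arrays. The 3 tissues did not overlap, and their order was tip, stalk, mesenchyme. Npnt was 4.82 ± 0.14 (SE) log2 units higher in tip than in mesenchyme, or 28.3-fold on the linear scale (95% interval 22.7 to 35.3; limma, adjusted p = 1.6e-06). It was 3.46 ± 0.14 higher in stalk than in mesenchyme (limma, adjusted p = 1.2e-05), and 1.36 ± 0.14 higher in tip than in stalk (limma, adjusted p = 0.000679). The mesenchyme values lay between the median of all probe sets on their array (5.52 and 5.60) and its upper quartile (7.73 and 7.58). The summed bud epithelium markers given above were also highest in tip and lowest in mesenchyme, and the part of the share of epithelial cells in the Npnt levels was not tested.

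Itga8, which encodes the alpha subunit of the nephronectin receptor, was low in tip. It stood at 6.79 and 6.24 in tip, 9.58 and 9.41 in stalk, and 10.05 and 9.75 in mesenchyme. Both tip arrays lay below all 4 others, and the stalk arrays lay below the mesenchyme arrays without a difference that passed. The tip was lower than the mesenchyme by -3.38 ± 0.21, a 10.4-fold difference (95% interval 7.48 to 14.6; limma, adjusted p = 2.55e-05), and lower than the stalk by -2.98 ± 0.21 (limma, adjusted p = 0.000124). For stalk against mesenchyme the difference was -0.40 ± 0.21, with a 95% interval of -0.88 to 0.08 (limma, adjusted p = 0.508). A second, dimmer Itga8 probe set had differences of -4.02 ± 0.32 in tip against mesenchyme and -3.63 ± 0.32 in tip against stalk, and both passed among all probe sets. Its second tip value, 3.97, was under the lower quartile of that array (4.23), so the size of these differences is uncertain. It had -0.40 ± 0.32 in stalk against mesenchyme.

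Markers of other cell types were also lowest in tip among the tissues by their sums. Beside the counts that follow, 8.37% of all genes were lower in tip than in mesenchyme and 6.97% lower in tip than in stalk. In stalk against mesenchyme 4.3% of all genes were higher and 1.24% lower. Of the sums given here, only that of the stroma markers was about as high in stalk as in mesenchyme. Of 5 renal stroma markers, Foxd1, Pdgfra, Tbx18, Meis1 and Col1a1, all 5 were lower in tip than in mesenchyme and all 5 lower in tip than in stalk. In stalk against mesenchyme 1 was higher and 1 lower, and the higher one did not pass when any single stalk or mesenchyme array was left out. Their summed intensity was 393 to 612 in tip, 6993 to 7552 in stalk and 6817 to 7312 in mesenchyme. Of 5 nephron progenitor markers, 4 were lower in tip and 4 were lower in stalk than in mesenchyme, and their sum was 527 to 637 in tip, 1157 to 1204 in stalk and 5125 to 5548 in mesenchyme. In stalk against mesenchyme the single stroma markers differed from each other, with Foxd1 lower (-1.18 ± 0.17; limma, adjusted p = 0.00722) and Tbx18 higher (1.41 ± 0.29; limma, adjusted p = 0.0306). In bulk tissue, fewer cells of a type and less RNA per cell cannot be told apart, and the part of stromal cells in the Itga8 levels was not tested. Endothelial markers were lower in tip as well (7 of 7 against mesenchyme), with sums of 621 to 629 in tip, 1482 to 1588 in stalk and 2421 to 2656 in mesenchyme. Of the erythroid markers 4 of 4 were lower in tip than in mesenchyme and 4 of 4 lower than in stalk (2 of 4 without either stalk array), with sums of 9571 to 9841 in tip, 17709 to 18044 in stalk and 23610.2 to 24052 in mesenchyme. Of the myeloid markers 4 of 6 were lower in tip than in mesenchyme and 3 of 6 lower than in stalk, with sums of 216 to 310 in tip, 494 to 516 in stalk and 803 to 894 in mesenchyme. None of the 10 stroma and progenitor markers lay below the lower quartile of its array in both arrays of a tissue.

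**Figure D2:**
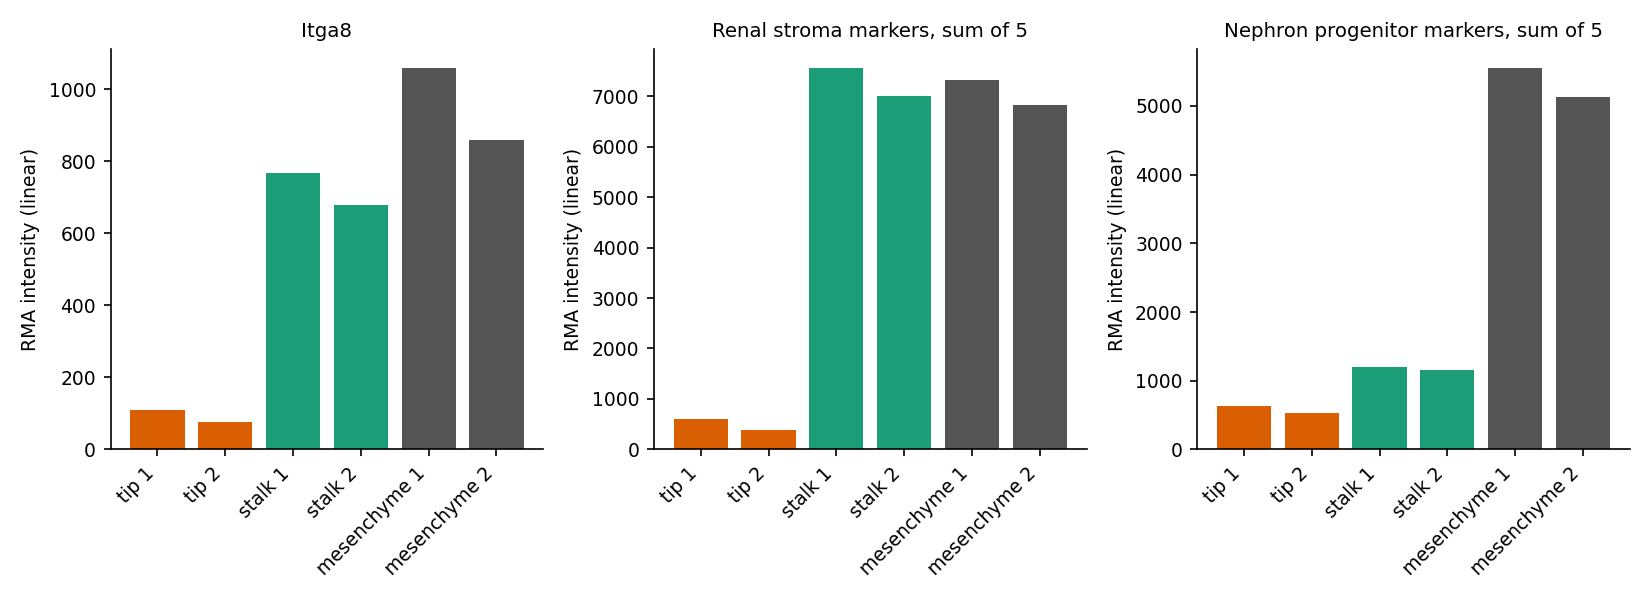
Linear RMA intensity of Itga8 and summed intensity of 5 renal stroma markers and 5 nephron progenitor markers on the 6 tissue arrays; each bar is 1 array. Itga8 and the stroma sum (393 to 612 in tip) were low in tip only, while the progenitor sum was low in tip and in stalk (1157 to 1204) and high in mesenchyme (5125 to 5548).

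Sequence upstream of the genes is shown for the 3 genes that differed most, Npnt and Itga3, which ran in the same order over the tissues, and Itga8, which ran the other way. RefSeq promoter windows of assembly GRCm38.p6, from 250 bases before to 50 bases after an annotated start, were found for 8 of the 10 genes, in 11 windows. Each is written from 5′ to 3′ on the strand of the gene, here the minus strand. Capitals mark GC boxes (GGGCGG, the letters that Sp1 family factors bind) and E-boxes of the Snail and Zeb type (CACCTG), both searched on both strands, so that CCGCCC and CAGGTG are the same motifs read on the other strand. Npnt has 2 annotated starts. Its first window is at chr3:132950242-132950541 and the other at chr3:132949765-132950064. The Itga3 window, of the upstream start of 2, is at chr11:95076665-95076964 and the Itga8 window at chr2:12301895-12302194.
Npnt, first start: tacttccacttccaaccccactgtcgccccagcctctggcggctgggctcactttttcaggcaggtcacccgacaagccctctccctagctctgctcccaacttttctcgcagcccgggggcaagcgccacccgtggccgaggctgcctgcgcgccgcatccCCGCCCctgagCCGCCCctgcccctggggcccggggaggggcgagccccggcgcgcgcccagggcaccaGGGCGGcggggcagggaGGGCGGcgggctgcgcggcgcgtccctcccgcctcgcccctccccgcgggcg
Npnt, second start: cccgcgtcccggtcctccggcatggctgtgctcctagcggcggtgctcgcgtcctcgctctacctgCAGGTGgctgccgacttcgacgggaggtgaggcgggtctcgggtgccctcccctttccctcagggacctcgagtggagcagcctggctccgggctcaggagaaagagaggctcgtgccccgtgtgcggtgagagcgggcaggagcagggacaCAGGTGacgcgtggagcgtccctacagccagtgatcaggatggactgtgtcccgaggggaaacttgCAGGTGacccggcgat
Itga3, upstream start: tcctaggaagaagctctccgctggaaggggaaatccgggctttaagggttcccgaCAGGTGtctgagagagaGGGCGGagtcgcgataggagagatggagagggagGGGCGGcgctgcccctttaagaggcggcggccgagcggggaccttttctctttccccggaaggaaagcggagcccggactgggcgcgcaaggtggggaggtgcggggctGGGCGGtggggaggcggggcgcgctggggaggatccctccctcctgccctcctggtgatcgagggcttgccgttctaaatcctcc
Itga8: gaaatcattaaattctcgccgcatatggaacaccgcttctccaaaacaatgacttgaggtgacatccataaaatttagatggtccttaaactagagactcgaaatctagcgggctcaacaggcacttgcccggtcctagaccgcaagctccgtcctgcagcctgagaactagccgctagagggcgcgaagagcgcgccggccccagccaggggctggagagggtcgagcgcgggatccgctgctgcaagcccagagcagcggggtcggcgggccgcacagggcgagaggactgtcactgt
The first Npnt window holds 4 GC boxes and no E-box and has 76.7% G and C, and the second holds 3 E-boxes and no GC box. The Itga3 window holds 3 GC boxes and 1 E-box, and no match overlaps another. The Itga8 window has neither motif in these letters. A GC box is present in 35.6% and an E-box in 20.2% of 32817 mouse promoter windows of this length, whose median G and C content is 52.7%. The motif AACCGGTT, which Grainyhead factors such as Grhl2 bind, occurs in 0.146% of all windows and in 0 of the 11. These matches describe the sequence and are not measured binding sites.

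Among the laminin-binding receptors, Itga3, which forms alpha3beta1 integrin, ran in the order tip, stalk, mesenchyme. Its brightest probe set stood at 8.68 and 8.47 in tip, 7.61 and 7.59 in stalk, and 6.68 and 6.62 in mesenchyme, with no overlap between tissues. Itga3 was 1.92 ± 0.13 higher in tip than in mesenchyme (limma, adjusted p = 4.5e-05), 0.94 ± 0.13 higher in stalk than in mesenchyme (limma, adjusted p = 0.00512), and 0.98 ± 0.13 higher in tip than in stalk (limma, adjusted p = 0.0029). Its other probe sets differed from it for the stalk. They gave stalk against mesenchyme differences of 0.01 and 0.04, while in tip against mesenchyme they gave 0.71 and 0.77, both called. The higher value in stalk therefore rests on 1 of 3 probe sets, and with the mean of all 3 the stalk difference was 0.33 (limma, adjusted p = 0.204). Without stalk replicate 1 it was 0.94 (limma, adjusted p = 0.0563).

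Itga6, whose product pairs with beta1 or with beta4, had a smaller range. Its values were 9.81 and 9.51 in tip, 9.13 and 8.97 in stalk, and 8.53 and 8.23 in mesenchyme, again without overlap. It was 1.28 ± 0.17 higher in tip than in mesenchyme (limma, adjusted p = 0.00132). The stalk lay between them, at 0.68 ± 0.17 above mesenchyme (limma, adjusted p = 0.0685; 0.00386 with the replicate block) and with tip 0.61 ± 0.17 above stalk (limma, adjusted p = 0.0657; 0.00432 with the replicate block). The difference of stalk from mesenchyme passed when either tip array was left out (limma, adjusted p = 0.0466), and it did not when any 1 stalk or mesenchyme array was left out (0.53 to 0.82; limma, adjusted p = 0.0872 to 0.474). The dimmer Itga6 probe set gave 1.14 ± 0.16 in tip against mesenchyme and 0.79 ± 0.16 in stalk against mesenchyme, both called among all probe sets. It gave 0.34 ± 0.16 in tip against stalk, which was not called (limma, adjusted p = 0.323).

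Itga2, which forms the collagen receptor alpha2beta1, was dim, and its values spanned 1.03 log2 units over the tissue arrays. It stood at 5.31 and 5.58 in tip, 4.81 and 5.26 in stalk, and 5.42 and 5.84 in mesenchyme. Tip overlapped with mesenchyme, and the stalk arrays were lower than all 4 others. Its differences were -0.19 ± 0.21 in tip and -0.60 ± 0.21 in stalk against mesenchyme, and 0.41 ± 0.21 in tip against stalk, and none passed without a block (limma, adjusted p = 0.711, 0.225 and 0.311). With the replicate block the difference of stalk from mesenchyme passed (limma, adjusted p = 0.00807), as did that of tip from stalk (limma, adjusted p = 0.029).

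The common subunits Itgb1 and Itgav were bright, and none of their differences passed. Itgb1, the shared beta subunit of most of these receptors, stood at 10.16 and 9.93 in tip, 10.34 and 10.40 in stalk, and 10.32 and 10.31 in mesenchyme. The tip arrays were the lowest, at -0.27 against mesenchyme with a 95% interval of -0.58 to 0.04 (limma, adjusted p = 0.276) and -0.33 against stalk with an interval of -0.64 to -0.01 (limma, adjusted p = 0.206). The difference of tip from stalk passed with a trended, robust variance (limma, adjusted p = 0.0306). Itgav stood at 10.34 and 10.23 in tip, 10.59 and 10.50 in stalk, and 10.42 and 10.33 in mesenchyme, and its 3 differences lay between -0.26 and 0.17. These intervals reach at most 0.64 log2 units from 0 for Itgb1 and 0.55 for Itgav, so larger differences of the brightest probe sets lie outside them. Of the 6 Itgb1 probe sets, 3 averaged 3.59, 3.28 and 2.77 over the tissue arrays, and of the 5 Itgav probe sets 2 averaged 3.53 and 2.98, all under the lower quartile of every tissue array (3.99 to 4.23). These dim probe sets carry little information on either gene.

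Of the beta subunits with restricted partners, Itgb4 and Itgb6 were dim in the embryonic tissues. Itgb4, the hemidesmosome subunit, stood at 5.19 and 5.04 in tip, 4.75 and 4.93 in stalk, and 4.89 and 5.13 in mesenchyme, and all 6 values were under the median of their array. Its 3 differences lay between -0.17 and 0.27. Itgb6, an epithelial subunit that activates latent TGF-beta together with alphav, stood at 4.44 and 4.06 in tip, 4.33 and 4.24 in stalk, and 3.87 and 3.79 in mesenchyme. Both mesenchyme values were under the lower quartile of their array (4.06 and 4.17), and so was the second tip value (4.23). Itgb6 was 0.42 ± 0.16 above mesenchyme in tip and 0.46 ± 0.16 above it in stalk, which did not pass (limma, adjusted p = 0.131 and 0.213) and passed with the replicate block (limma, adjusted p = 0.0298 and 0.044). The difference of tip from mesenchyme also passed without tip replicate 2 (0.61; limma, adjusted p = 0.0264). Itgb8, the other TGF-beta-activating partner of alphav, stood at 6.41 and 5.79 in tip, 6.19 and 6.13 in stalk, and 6.20 and 5.76 in mesenchyme. All 6 values were just above the median of their array, the tissues overlapped, and its differences of -0.06 to 0.17 were smaller than their standard error of 0.23.

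Over all 28 probe sets, the same fit on every probe set of the array called 12 in tip against mesenchyme (10 higher, 2 lower), where 10.3% of all probe sets passed. It called 5 in stalk against mesenchyme, all of them higher, where 3.16% passed, and 7 in tip against stalk (5 higher, 2 lower), where 6.27% passed. All 5 Npnt probe sets were higher in tip than in mesenchyme, by 4.82, 4.59, 1.11, 2.04 and 1.09 in order of brightness. The dimmer 3 thus gave smaller differences than the brightest 2. In the same order they gave 3.46, 3.20, 0.40, 1.17 and 0.36 in stalk against mesenchyme and 1.36, 1.39, 0.71, 0.87 and 0.73 in tip against stalk, and the third and the fifth passed in neither. Each of these 3 has an identifier that marks probes shared by transcripts of the same gene, and they stood at 5.06 to 6.15 on average over the tissue arrays.

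**Figure D3:**
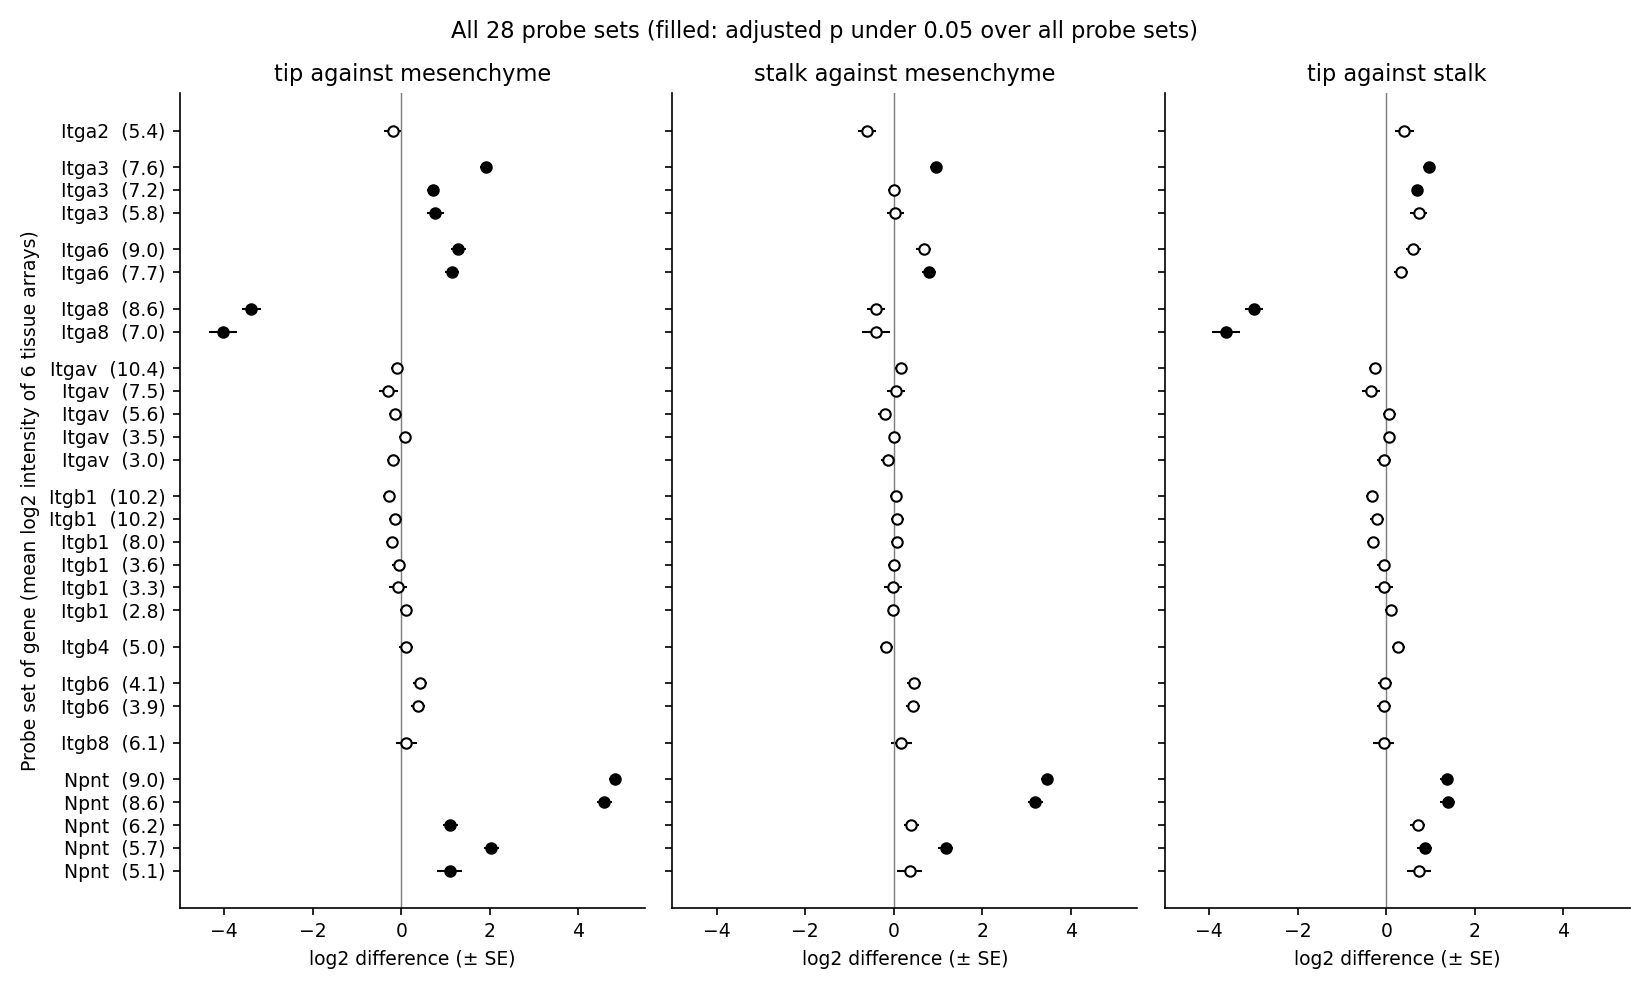
Log2 difference with its standard error for each of the 28 probe sets in the 3 tissue comparisons; rows are grouped by gene, with the mean log2 intensity of the 6 tissue arrays in parentheses, and filled points passed an adjusted p under 0.05 over all probe sets. All 5 Npnt and all 3 Itga3 probe sets were higher in tip than in mesenchyme, both Itga8 probe sets were lower in tip, and no Itga2, Itgav, Itgb1, Itgb4, Itgb6 or Itgb8 probe set passed.

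The mIMCD-3 line was set against the embryonic tissues by size alone, because it has 1 array, which was added after the tissue arrays, so line and batch cannot be told apart. A gene was counted when mIMCD-3 lay outside the range of all 6 tissue arrays by at least 1 log2 unit. By this rule 4 of the 10 genes were above the tissues, Itga3, Itgb4, Itgb6 and Itgb8, where 6.31% of all genes were. Itga8 was below them, where 5.13% of all genes were. The median difference of the 10 genes from the mean of the tissue arrays was 0.83, and that of all genes was -0.06. No p-value is given, as there is no replicate.

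Itgb4 had the largest step beyond the tissues. It stood at 8.08 in mIMCD-3, against tissue values of 4.75 to 5.19, which is 2.89 log2 units or 7.40-fold above the highest tissue array. Itgb6 stood at 7.02 against tissue values of 3.79 to 4.44, a step of 2.58, and a second Itgb6 probe set gave 6.55 against 3.58 to 4.23. Itga3 stood at 11.25 in mIMCD-3, against 8.68 on the highest tissue array, a step of 2.57. All 3 Itga3 probe sets were higher in mIMCD-3 than in tip, by 2.67, 2.62 and 2.70. Itgb8 stood at 8.77 in mIMCD-3, against 5.76 to 6.41 in the tissues, a step of 2.36. Of the 4 genes that were high in the line, 3 were thus the beta subunits with restricted partners. Itgb4 and Itgb8 were each read by 1 probe set, so no other probe set could be set beside theirs.

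The partner subunits did not pass the same rule. Itgav stood at 10.76 in mIMCD-3, 0.17 above the highest tissue array. Itgb1 stood at 10.24, inside the tissue range of 9.93 to 10.40. Itga6, the partner of beta4, stood at 7.92 in mIMCD-3, against 8.23 on the lowest tissue array. Its dimmer probe set placed the line differently, at 8.06 in mIMCD-3 within the tissue range of 6.98 to 8.34. The bright one was -1.74 against tip and the dimmer one -0.09. Itga2 stood at 4.85, inside the tissue range.

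In the line Npnt was above and Itga8 below its own mesenchyme level. Npnt stood at 10.26 in mIMCD-3, which is -0.77 against the tip mean, 0.60 against the stalk mean and 4.05 against the mesenchyme mean. The Npnt probe sets disagreed on the order of line and tip. The brightest 2 gave -0.77 and -1.42 for mIMCD-3 against tip, and the other 3 gave 0.46, 0.94 and 1.36. Itga8 stood at 3.78 in mIMCD-3, below the lower quartile of that array (3.99), and 2.45 under the lowest tissue array. At such a dim level the size of the difference is uncertain. The dimmer Itga8 probe set stood at 3.43 in mIMCD-3, against 3.97 to 8.76 in the tissues. In the line the summed intensity of the renal stroma markers was 874, above that of tip and below that of stalk and mesenchyme, and the nephron progenitor sum was 364, below all 6 tissue arrays.

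**Figure D4:**
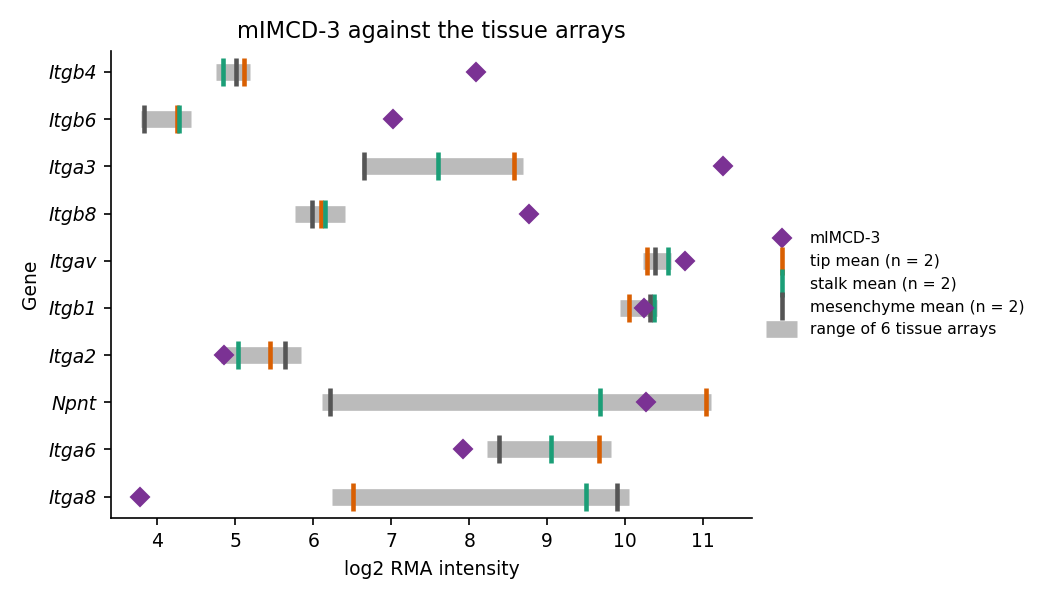
Log2 RMA intensity of the 10 genes in mIMCD-3 (diamond, 1 array) against the tip, stalk and mesenchyme means (ticks, n = 2) and the range of the 6 tissue arrays (grey bar), sorted by the difference of mIMCD-3 from tip. Itgb4, Itgb6, Itga3 and Itgb8 lay 2.36 to 2.89 above the tissue range, and Itga8 lay 2.45 below it.

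Genes with the tissue profiles most like these were found by the mean absolute difference between centred log2 profiles over the 6 tissue arrays, among 2531 genes that spanned at least 1 log2 unit. Itga8 was nearest to Kif26b (0.088), Hoxd12 (0.097) and Twist1 (0.098). Npnt was nearest to Kcnk1 (0.15), Erbb3 (0.16) and Hoxd1 (0.19), Itga3 to Hook1 (0.046), Car12 (0.049) and Rasl10a (0.056), and Itga6 to Magi1 (0.015), Prr13 (0.025) and Znrf3 (0.031). These are given for the 4 genes that were called. Arrays of a tissue share their dissection, so these values only describe likeness.

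Of 18 other integrin subunits listed, 16 were measured. In tip against mesenchyme 1 of 16 was called, where 15.7% of all genes were, in stalk against mesenchyme 1 of 16, where 5.54% were, and in tip against stalk 2 of 16, where 9.83% were. Itga9, whose product pairs with beta1, was lower in tip, at 6.01 and 5.95, against 7.97 and 7.89 in stalk and 8.23 and 7.99 in mesenchyme. Its differences were -2.12 ± 0.13 against mesenchyme (limma, adjusted p = 3.01e-05) and -1.95 ± 0.13 against stalk (limma, adjusted p = 0.000125). Itga4 was higher in stalk than in mesenchyme by 1.07 ± 0.16 (limma, adjusted p = 0.00749), a call that was lost without mesenchyme replicate 2 (0.94; limma, adjusted p = 0.0512) or without stalk replicate 2 (0.97; limma, adjusted p = 0.0642). Itga4 was also lower in tip than in stalk (-0.72), and not without tip replicate 2 (-0.59) or either stalk array (-0.82 and -0.61). With its probe sets averaged, that difference was -0.28 and did not pass (limma, adjusted p = 0.221). The other 14 were not called in any of the 3 comparisons.

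Matrix ligands of integrins were called in both directions in tip. Of 22 measured, 6 were higher and 8 lower in tip than in mesenchyme, with a median difference of 0.03, where 7.38% of all genes were higher and 8.37% lower. Laminin and nidogen genes of basement membranes were called in both directions. Lama5 (2.00), Lamc1 (1.76) and Lamb1 (1.17) were among the higher, and Lama2 (-1.09), Lama4 (-0.97) and Nid1 (-2.17) among the lower. These genes were named after their values were seen. The laminin chain gene Lama1 stood at 9.98 and 9.83 in tip, 8.63 and 8.44 in stalk, and 6.69 and 6.72 in mesenchyme. Lama1 was 3.20 ± 0.13 higher in tip than in mesenchyme and 1.83 ± 0.13 higher in stalk than in mesenchyme. The lower ones held the fibrillar collagen genes Col1a1 (-3.63 ± 0.20) and Col1a2 (-2.48 ± 0.15) and the nidogen gene Nid2 (-1.53 ± 0.18). For stalk, 7 were higher and 1 was lower than in mesenchyme, where 4.3% and 1.24% of all genes were, and Nid2 was among the higher (0.97 ± 0.18), a call that it lost without mesenchyme replicate 2 or either stalk array (0.82 to 1.07). Leaving out mesenchyme replicate 2 or stalk replicate 2 gave 4 higher, leaving out stalk replicate 1 gave 3, and 0 were lower when any single stalk or mesenchyme array was left out. In tip against stalk 3 were higher and 8 lower, where 2.86% and 6.97% of all genes were, with 5 higher under the replicate block and 1 higher without tip replicate 1 or either stalk array. Col1a1 is also 1 of the renal stroma markers above.

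Genes of the outgrowth pathway that nephronectin and alpha8beta1 act on in mice, through the growth factor gene Gdnf, are given next. Of 12 measured, 8 were higher and 3 lower in tip than in mesenchyme, with a median of 1.66, where 7.38% and 8.37% of all genes were. In tip against stalk 7 were higher and 3 lower, with a median of 1.32, where 2.86% and 6.97% of all genes were. Ret and Wnt11 are also on the list of bud tip markers, and all 6 bud epithelium markers were higher in tip than in mesenchyme, whose part in these counts was not tested. Ret, the GDNF receptor gene, stood at 11.07 and 10.70 in tip, 8.89 and 8.52 in stalk, and 4.56 and 4.997 in mesenchyme. Gata3, a transcription factor gene of the nephric duct, was 4.64 ± 0.14 higher in tip than in mesenchyme. Frem2, a basement membrane gene of the Fraser complex that is linked to nephronectin deposition in mice, was 4.52 ± 0.13 higher in tip and 2.78 ± 0.13 higher in stalk than in mesenchyme. Wnt11, a ligand gene of the bud tip, was 3.07 ± 0.21 higher in tip than in mesenchyme. Relative to mesenchyme the stalk had 5 higher and 2 lower, where 4.3% and 1.24% of all genes were, or 8 higher under the replicate block. Without stalk replicate 1 the counts were 3 and 1, and the lower count was 1 without any 1 of the other stalk or mesenchyme arrays. Gata3 in tip against stalk (0.91 ± 0.14) was not called without stalk replicate 2 (0.81; limma, adjusted p = 0.0685). The lower genes in tip included Gdnf itself, at -2.83 ± 0.14 against mesenchyme. Gdnf was named after its value was seen.

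Genes of the latent TGF-beta axis, on which alphavbeta6 and alphavbeta8 act, are described by 11 measured genes. In tip against mesenchyme 5 were lower and 1 higher (0 higher without mesenchyme replicate 2), with a median of -0.30, where 8.37% of all genes were lower and 7.38% higher. Relative to stalk, 6 were lower and 1 was higher in tip, with a median of -0.53, where 6.97% of all genes were lower and 2.86% higher. The ligand gene Tgfb2 stood at 4.26 and 4.40 in tip, 7.92 and 7.69 in stalk, and 8.19 and 8.04 in mesenchyme, a difference of -3.78 ± 0.14 in tip against mesenchyme. Tgfb3 was lower in tip by -2.26 ± 0.15, Ltbp3, a latent TGF-beta binding protein gene, by -1.57 ± 0.17, and Tgfbi, a TGF-beta-induced matrix gene, by -3.76 ± 0.16. In stalk against mesenchyme limma called 0 of the 11, where 5.54% of all genes passed. At an unadjusted p under 0.05 there were 4 higher and 2 lower, and with the block 4 passed as higher and 1 as lower. Without either tip array 2 were higher in stalk. The renal stroma sums given for Itga8 (393 to 612 in tip, 6993 to 7552 in stalk, 6817 to 7312 in mesenchyme) were likewise lowest in tip, and the part of stromal cells in these levels was not tested.

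The counts for proteins that link integrins to the cytoskeleton depended on single arrays. Of 21 adhesion machinery genes measured, 5 were higher and 5 lower in tip than in mesenchyme, with a median of -0.19, where 7.38% and 8.37% of all genes were. Leaving out mesenchyme replicate 1 gave 2 and 2. Leaving out mesenchyme replicate 2 gave 1 higher, tip replicate 1 gave 3 higher, and either stalk array gave 3 lower. In tip against stalk 2 were higher and 7 lower, where 2.86% and 6.97% of all genes were. Here 1 was higher with either mesenchyme array left out and 0 with tip replicate 1 or either stalk array left out. There were 2 lower without stalk replicate 1, 1 without stalk replicate 2 and 3 without tip replicate 2. The stalk had 2 higher and 0 lower than mesenchyme by limma (4 and 0 at an unadjusted p under 0.05), where 4.3% and 1.24% of all genes were. It had 4 higher under the block, and 1 when any single stalk or mesenchyme array was left out. Cd9, a tetraspanin gene whose product associates with integrins, was 2.33 ± 0.15 higher in tip and 1.58 ± 0.15 higher in stalk than in mesenchyme. Parvb (-1.26 ± 0.20) and Rsu1 (-1.01 ± 0.13), whose products belong to the complex of integrin-linked kinase, were lower in tip than in mesenchyme. The kindlin gene Fermt2 was lower by -0.70 ± 0.13 (limma, adjusted p = 0.00786), and not when mesenchyme replicate 1 was left out (-0.68; limma, adjusted p = 0.0577) or when its probe sets were averaged (-0.34; limma, adjusted p = 0.112).

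Genes of hemidesmosomes, where alpha6beta4 anchors keratin, had calls in the tissues where Itgb4 had none. Of 4 genes, the plectin gene Plec and the tetraspanin gene Cd151 were higher in tip than in mesenchyme. Dst, which encodes the plakin dystonin, was lower in tip, where 7.38% of all genes were higher and 8.37% lower. Plec and Cd151 were also higher in stalk than in mesenchyme, where 4.3% of all genes were higher and 1.24% lower. Plec was 0.56 ± 0.14 higher in tip (limma, adjusted p = 0.0352) and 0.74 ± 0.14 higher in stalk (limma, adjusted p = 0.0248). Its call in tip was lost without any 1 of mesenchyme replicate 2, the stalk arrays or the tip arrays (0.41 to 0.59), and its call in stalk without mesenchyme replicate 2 or either stalk array (0.59 to 0.77). Cd151 was 0.66 ± 0.12 higher in tip and 0.63 ± 0.12 higher in stalk, and lost its call in tip without mesenchyme replicate 2 (0.62) and in stalk without any 1 stalk or mesenchyme array (0.59 to 0.66). With the mean of probe sets the stalk differences of Plec (0.39) and Cd151 (0.35) did not pass either. The brightest probe set of each has an identifier that marks shared probes. Without such probe sets Plec was 0.60 in tip and 0.33 in stalk (limma, adjusted p = 0.0746 and 0.593). Cd151 was then 0.51 in stalk (limma, adjusted p = 0.121). The Plec call in tip was also lost with every probe set fitted (limma, adjusted p = 0.0518). In mIMCD-3, 1 of the 4 hemidesmosome genes lay above the tissue range by the size rule, where 6.31% of all genes did. Cd151 stood at 10.40 in the line, inside its tissue range of 9.92 to 10.64, and Dst at 8.40, against 6.10 to 7.78 in the tissues. Plec stood at 10.17 in mIMCD-3, against 8.50 and 8.44 in tip, 8.62 and 8.67 in stalk, and 8.06 and 7.75 in mesenchyme. Of the other lists, 2 of 16 integrin subunits, 4 of 22 matrix ligands and 2 of 21 adhesion genes lay above the tissues. The same held for 3 of 11 latent TGF-beta genes and 0 of 12 outgrowth genes. Below the tissues lay 2, 8, 0, 3 and 6 genes of these lists in the same order, where 5.13% of all genes did.

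**Figure D5:**
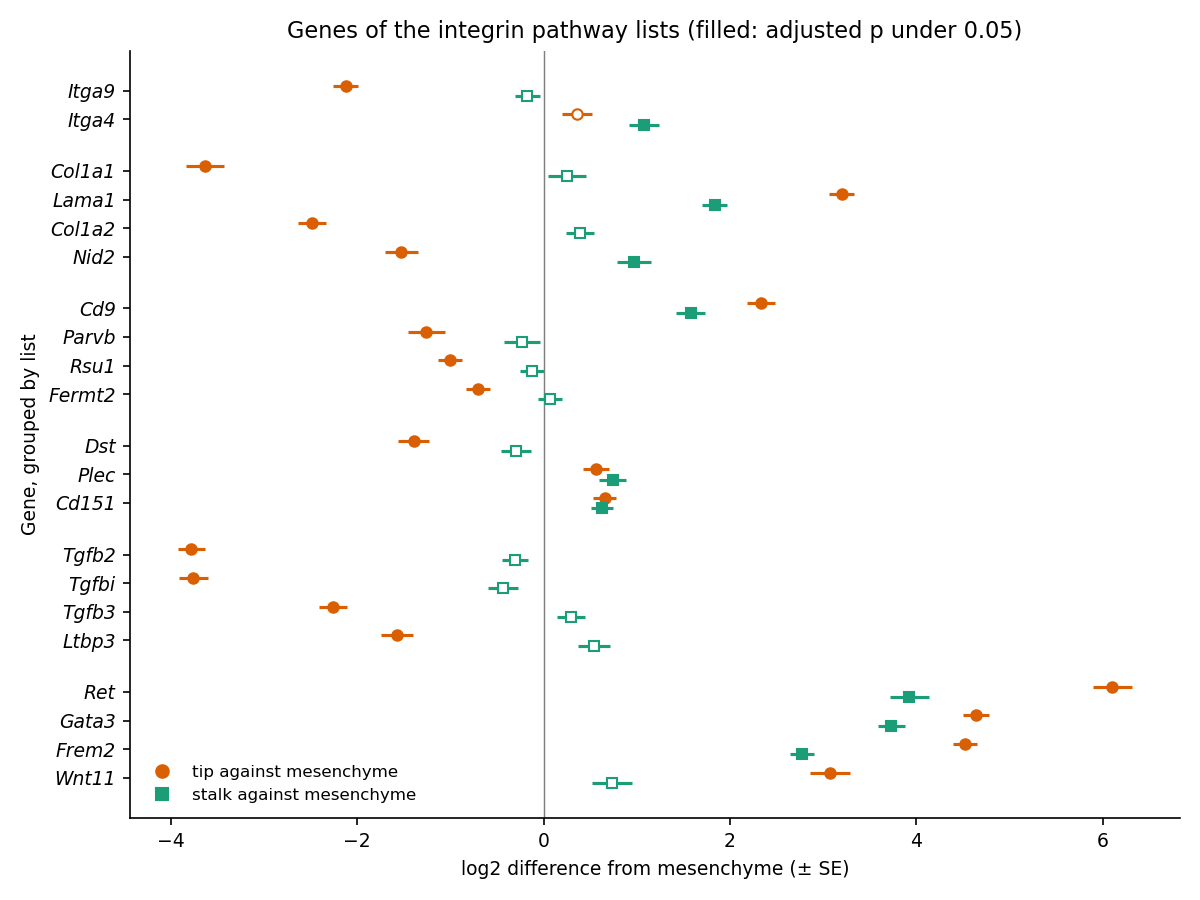
Log2 difference from mesenchyme with its standard error in tip (circles) and stalk (squares) for the genes named from 6 pathway lists, from top to bottom other integrin subunits, matrix ligands, adhesion machinery, hemidesmosome partners, the latent TGF-beta axis and the outgrowth pathway; filled symbols passed an adjusted p under 0.05. Tgfb2, Tgfbi and Col1a1 were lower in tip by -3.78, -3.76 and -3.63, and Ret, Gata3 and Frem2 were higher in both bud tissues.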

How the data were processed

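Total RNA was hybridised to Affymetrix mouse arrays, 7 in all. The deposited values are linear intensities that the authors recalculated over the complete set by RMA, per the series' design text and the submitters' processing notes; the software and its version are not given in the sources used here. Here log2 was taken with no pseudocount. Of 45101 probe sets, 34945 list 1 gene and 932 several, and those were named from the platform's annotation; the brightest probe set on average stood for each of 18193 genes. The 6 tissue arrays were fitted with limma 3.58.1 in R 4.3.3 (3 group means, 3 residual degrees of freedom, two-sided). The fit was also run on simulated arrays with independent noise on each array. In tip against mesenchyme it called 58% of 100 genes changed by 1 log2 unit and 91% of 100 changed by 2. Only these genes were changed, whereas 15.7% of all genes passed in the data. The adjusted threshold was therefore stricter in the simulation, and its percentages do not give the sensitivity of the real fit. Replicate differences shared between tissues were not simulated. Summaries used Python 3.11.15. The number of arrays limits the precision.

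All 10 genes are named, with up to 4 called genes of each pathway list by size of change. The genes and lists were chosen with earlier results of these data known, and the promoter motifs after others had been searched. Listed genes with no probe set of their own were not used here. Replicate numbers were checked as pairs: replicate differences correlated at 0.43 (tip and stalk), 0.57 (tip and mesenchyme) and 0.39 (stalk and mesenchyme), all over 0.1, so the block is given where it changes a call. Alternatives covered the choice of probe sets, normalization, variance model, a filter on dim genes, the groups fitted and each array left out. Samples were grouped by their titles.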

Additional observations from a re-analysis of the deposited data

How the results depend on the processing

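Of 438 values for the 10 genes under the alternatives, 407 kept their direction and side of the threshold, 20 passed that had not, 2 no longer passed and 9 changed sign. For the 9 called differences, 133 of 135 values kept the call and its direction; the exceptions were Itga3 in stalk against mesenchyme with the mean of probe sets and without stalk replicate 1. The count of genes called in stalk against mesenchyme was 5 with the replicate block, against 2, and 1 to 3 with 1 array left out. In tip against stalk it was 5 with the replicate block and 5 with a trended, robust variance, where Itgb1 and Itga6 passed as well, against 3. The share of all genes called under these settings was not counted. The block changed no other call among the 10 genes than those given beside Itga2, Itga6 and Itgb6. The sign changes were all of differences that had not passed. With the mean of probe sets, Itgav in stalk against mesenchyme was -0.020 and Plec in tip against stalk 0.089, and without shared-probe identifiers Plec was 0.27. With 1 array left out, tip against mesenchyme ran from -0.40 to 0.021 for Itga2, -0.020 to 0.23 for Itgb4 and -0.19 to 0.42 for Itgb8. Stalk against mesenchyme ran from -0.045 to 0.39 for Itgb8. Tip against stalk ran from -0.22 to 0.15 for Itgb6, -0.37 to 0.25 for Itgb8 and -0.0045 to 0.064 for Cd151. Leaving out probe sets with shared-probe identifiers left Itgb4 unmeasured, and the filter on dim genes left 7 of the 10. With 2 arrays a tissue and 1 of mIMCD-3, small differences of dim probe sets could not be resolved.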
